A study of Mus musculus with 2 samples.

Results

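The 9 genes described here encode enzymes of the tricarboxylic acid (TCA) cycle, also called the citric acid cycle: Cs, Idh2, Idh3a, Ogdh, Suclg1, Suclg2, Sucla2, Fh1 and Mdh2. They were taken by gene name from the scanner tables, which gave 12 probes of the 39424 kept on each array. All 9 genes were among the 15419 measured, and all 12 probes were well above background on both arrays. The set was chosen by a measured value, the difference of Suclg2, which had one of the largest increases in this comparison, so its values describe these arrays and are not a test.

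The series asked what knockdown of G0s2 does to the transcripts of mouse primary hepatocytes, the main cells of the liver, taken into culture. One array held RNA from cells transfected with control siRNA and 1 array held RNA from cells transfected with G0s2 siRNA. Both groups received 50 pmol of siRNA by lipid transfection in medium with 10% serum, and RNA was collected after 24 hours. Strain, sex, age and number of animals are not given in the sources used here, nor is the siRNA sequence. With a single array per group there is no replicate check behind any difference, and no p-value was computed. Errors (±) are the scanner's own signal error carried to the log2 difference, which does not cover the spread between cultures, extractions or labelling reactions. For bright single spots this error was close to a fixed share of the signal, such as 302 of 3023 for Cs with control siRNA. It was therefore nearly the same for most genes, with a median of 0.20, and is not a spread measured for each gene.

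The TCA cycle runs in the mitochondrial matrix and oxidises acetyl groups from carbohydrate, fat and amino acids, passing electrons to the respiratory chain. In the liver its intermediates also feed glucose synthesis, fatty acid synthesis, the urea cycle and haem synthesis. Succinyl-CoA ligase turns succinyl-CoA into succinate while making a nucleoside triphosphate. It is a pair of an alpha subunit, encoded by Suclg1, and a beta subunit, which decides the nucleotide: the beta subunit of Suclg2 makes the GTP-forming enzyme and that of Sucla2 the ATP-forming enzyme. The GTP-forming type is known as the more prominent one in liver.

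The probes of the 3 succinyl-CoA ligase genes and of Cs are shown because the largest contrasts lie among these genes. Each line gives the first 30 of the probe's 60 bases, 5′ to 3′ as the scanner table lists them. No base is singled out with capitals.
Suclg2: tgtgcatacatacagtatttaaagccagat
Sucla2: tgtggtctctcctagtgtcccttttctttt
Suclg1: catcatactgattggtgaaattggtggtca
Cs: tgttgagatggacacactgtaaacccctgg
On genome build mm9 the Suclg2 probe, A_52_P58181 for NM_011507, lies on chromosome 6 from 95424712 to 95424771 on the minus strand, and starts at position 1635 of the transcript. The Suclg1 probe, A_51_P491227 for NM_019879, lies on the same chromosome from 73221044 to 73221103 on the plus strand, at transcript position 904. The Sucla2 probe, A_52_P533792 for NM_011506, lies on chromosome 14 from 73995311 to 73995370 on the plus strand, at position 1469. The Cs probe, A_52_P182659 for NM_026444, lies on chromosome 10 from 127799428 to 127799487 on the plus strand, at position 2720. Exons and UTRs of that build were not used here. None of the 12 probes shared a run of 18 bases, on either strand, with any other probe on the array.

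Arrays differed in overall brightness. The 75th percentile of processed signal was 418 with control siRNA and 728 with G0s2 siRNA, a ratio of 1.74. Levels are therefore given as log2 signal minus each array's 75th percentile, and a difference is the G0s2 siRNA level minus the control siRNA level. A probe's level also depends on its own sequence, so levels are compared between arrays and not between genes, except for likeness to Suclg2 below. G0s2, the targeted gene, had a level of -0.13 with control siRNA and -2.83 with G0s2 siRNA, so the library labelled as knockdown had 6.50-fold less of it. Hepatocyte markers were present: all 8 of the list, Alb and Hnf4a among them, were well above background on both arrays, with differences from -0.16 to 1.04. Of marker lists for other cells, 7 of 7 macrophage, 6 of 6 endothelial, 3 of 6 stellate and 4 of 5 cholangiocyte genes were measured. Lrat, Des and Pdgfrb of the stellate list and Epcam of the cholangiocyte list were not well above background on either array. Median differences of the 4 lists were 0.14, 0.83, 0.29 and -1.03. Relative to the 75th percentile, the summed signal of the lists on the G0s2 siRNA array was 1.19 times that on the control array for hepatocyte markers, 0.909 for macrophage, 0.755 for endothelial, 1.26 for stellate and 0.462 for cholangiocyte markers. The part of these shifts in the differences below was not tested. In whole-culture RNA, fewer cells of a type and less RNA per cell cannot be told apart.

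Of the 9 enzymes, Suclg2 and Cs passed 2-fold upward in the knockdown library and none passed it downward. The background over all 15419 genes was 4.81% for at least 2-fold higher and 5.47% for at least 2-fold lower. Since the set was chosen for the difference of Suclg2, nothing is read from its count against that background. The median difference of the 9 genes was 0.00, beside -0.03 over all genes. The other 7 genes lay between -0.25 and 0.11, with 4 of them positive and 3 negative.

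Suclg2 had the largest difference of the set. Its processed signal was 99.7 with control siRNA and 1727 with G0s2 siRNA. The level moved from -2.07 to 1.25, a difference of 3.32 ± 0.21, or 9.96-fold. Within each array's own ranking of probes it moved from percentile 63.0 to percentile 82.3. Among the 14122 genes above background on both arrays it had the fourth-largest increase, at rank 4, and 99.9% of these genes had a smaller difference in either direction. It rests on 1 spot per array.

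The spots behind that value were checked with the scanner's summaries of their pixels. On the control siRNA array the pixels of the Suclg2 spot had a mean of 174 and a median of 169, over a local background of 60.5. On the G0s2 siRNA array the mean was 1910 and the median 1895, over a background of 58.0. Mean and median were close on both arrays, and neither spot was among those the scanner program marked as outliers. Of the 72 other probes above background within 5 rows and columns of the spot, the median difference was -0.16 and the range -2.53 to 1.46, so no neighbour reached the difference of Suclg2.

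The partner and the alternative of Suclg2 moved otherwise. Suclg1, the alpha subunit shared by both forms of the ligase, had signals of 9393 and 13712 on the control siRNA and G0s2 siRNA arrays. Its levels were 4.49 and 4.24, a difference of -0.25 ± 0.20. Sucla2, the ATP-forming beta subunit, had signals of 8157 and 11939, levels of 4.29 and 4.04, and a difference of -0.25 ± 0.20. Both differences were little larger than the scanner error. The differences of Suclg1 and Sucla2 were 0.00 apart, on an error of 0.29.

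A comparison between 2 genes on the same arrays does not depend on how the arrays are centred. The signal of Suclg2 relative to Sucla2 was 11.8-fold higher on the G0s2 siRNA array than on the control array, a shift of 3.57 ± 0.29 on the log2 scale. Relative to Suclg1 it was 11.9-fold higher, also a shift of 3.57 ± 0.29. Over the reported setting and 10 other ways of processing, the first shift ranged from 2.95 to 3.57 and the second from 2.91 to 3.57. Median and spike-in centring, the 2 filters and probe averaging could not move these ratios. Such a ratio shows unequal change between the genes and does not show which of them moved.

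**Figure D1:**
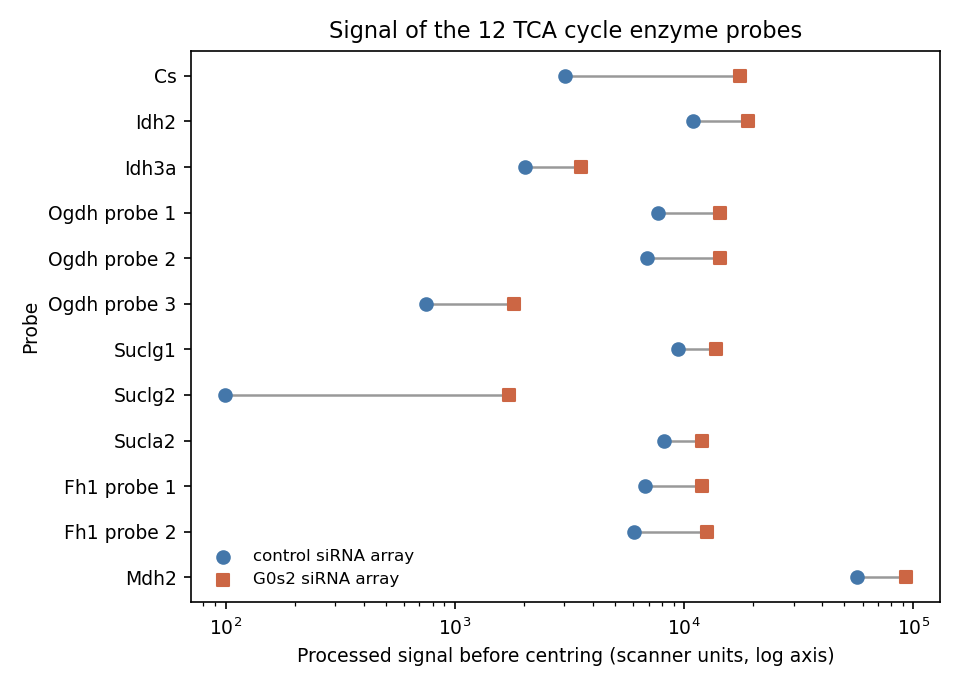
Processed signal of each of the 12 probes (x axis, scanner units on a log scale, before centring) on the control siRNA array (circles) and the G0s2 siRNA array (squares), 1 spot each; probes of a gene are numbered by position in the transcript. Every line runs to the right, as does the 75th percentile of the arrays (418 and 728), and the lines of Suclg2 (99.7 to 1727) and Cs (3023 to 17444) are much the longest.

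Cs encodes citrate synthase, which condenses acetyl-CoA with oxaloacetate at the entry of the cycle and is widely used as a measure of mitochondrial content. Its signal was 3023 with control siRNA and 17444 with G0s2 siRNA. The levels were 2.85 and 4.58, a difference of 1.73 ± 0.20, or 3.32-fold. It had rank 102 among the increases of genes above background on both arrays. Like Suclg2 it rests on 1 probe with 1 spot per array, and the 59 neighbouring probes above background had a median difference of -0.06. Csl, a citrate synthase-like gene, had its own probe with a difference of 0.07 ± 0.20. The shift of Cs relative to Csl was 1.66 ± 0.29, and 1.59 to 1.95 over the ways of processing.

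The isocitrate dehydrogenases were level in the genes of the set and unequal in their partners. Idh3a encodes the catalytic alpha subunit of the NAD-dependent enzyme. Its signals of 2031 and 3541 correspond to levels of 2.28 on both arrays, a difference of 0.00 ± 0.20. Idh2, the mitochondrial NADP-dependent enzyme that also supplies NADPH, had signals of 10943 and 19052 and a level of 4.71 on both arrays, again a difference of 0.00 ± 0.20. Normexp background correction moved Idh2 to 0.23. Of the other subunits of the NAD-dependent enzyme, Idh3b differed by -0.28 ± 0.20 and Idh3g by -1.21 ± 0.20, or 2.31-fold lower, with levels of 4.27 in the control and 3.06 in the knockdown library. The shift of Idh3a relative to Idh3g was 1.21 ± 0.29. Idh1, the cytosolic NADP-dependent enzyme, differed by 0.72 ± 0.20.

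The oxoglutarate dehydrogenase complex, which makes the succinyl-CoA that the ligase uses, was close to level. Ogdh, its first and rate-setting component, had 3 probes. The probe at transcript position 4028 had signals of 7665 and 14361 on the control siRNA and G0s2 siRNA arrays and a difference of 0.11 ± 0.20. The probe at position 4100 had signals of 6882 and 14339 and a difference of 0.26 ± 0.20. The third, at position 6427, was much dimmer, with signals of 745 and 1818, and had a difference of 0.49 ± 0.20. All were positive and under 2-fold, and their values spread over 0.38 on the log2 scale. Dlst, the succinyltransferase component, differed by -0.08 ± 0.20. Dld, the dehydrogenase shared with other such complexes, differed by -0.31 ± 0.20 at its brighter probe and by 0.13 ± 0.20 at the other.

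The remaining steps showed small differences. Succinate dehydrogenase, which oxidises succinate and is also respiratory complex II, had Sdha at 0.32, Sdhb at -0.36, Sdhc at 0.24 and Sdhd at 0.15, each ± 0.20. The second probes of Sdhb and Sdhc gave -0.37 and 0.23. Fh1 encodes fumarase, which hydrates fumarate to malate. Its probe at transcript position 1365 had signals of 6722 and 11902 on the control siRNA and G0s2 siRNA arrays and a difference of 0.03 ± 0.20. That probe spans 2431 bases of the genome for 60 bases of sequence. Its probe at position 1551 had signals of 6069 and 12575 and a difference of 0.25 ± 0.20. Mdh2, the mitochondrial malate dehydrogenase that regenerates oxaloacetate, had signals of 56849 and 92500, levels of 7.09 and 6.99, and a difference of -0.10 ± 0.20. Mdh1, its cytosolic counterpart in the malate-aspartate shuttle, differed by -0.06 ± 0.20.

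**Figure D2:**
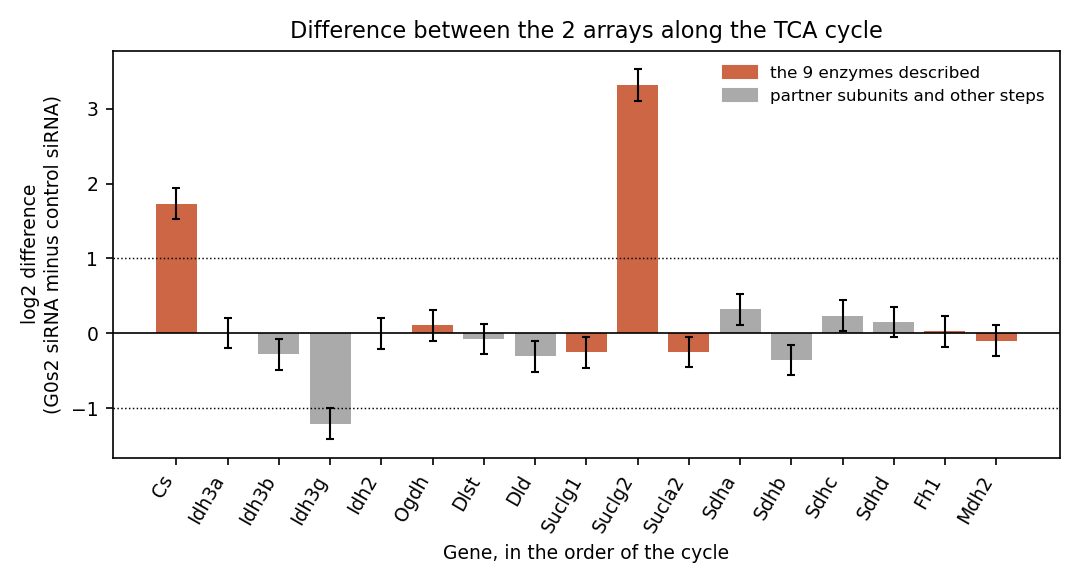
Log2 difference, G0s2 siRNA minus control siRNA (y axis), for the 9 enzymes described (orange) and for partner subunits and other steps of the cycle (grey), in the order of the cycle; bars are 1 array against 1, error bars are the scanner error and dotted lines mark 2-fold. Suclg2 at 3.32 and Cs at 1.73 lie above the upper line, Idh3g at -1.21 lies below the lower line, and the other bars lie within -0.36 to 0.32.

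Ordered by difference, the set ran Suclg2, Cs, Ogdh, Fh1, Idh3a, Idh2, Mdh2, Sucla2, Suclg1. The gap from Suclg2 to Cs was 1.59 ± 0.29 and from Cs to Ogdh 1.62 ± 0.29. Below that, the widest gap between neighbours was 0.15 on an error of 0.29, so the order of the last 7 is within scanner error between neighbours. From Ogdh to Suclg1 these 7 spanned 0.36 ± 0.29 in all.

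**Figure D3:**
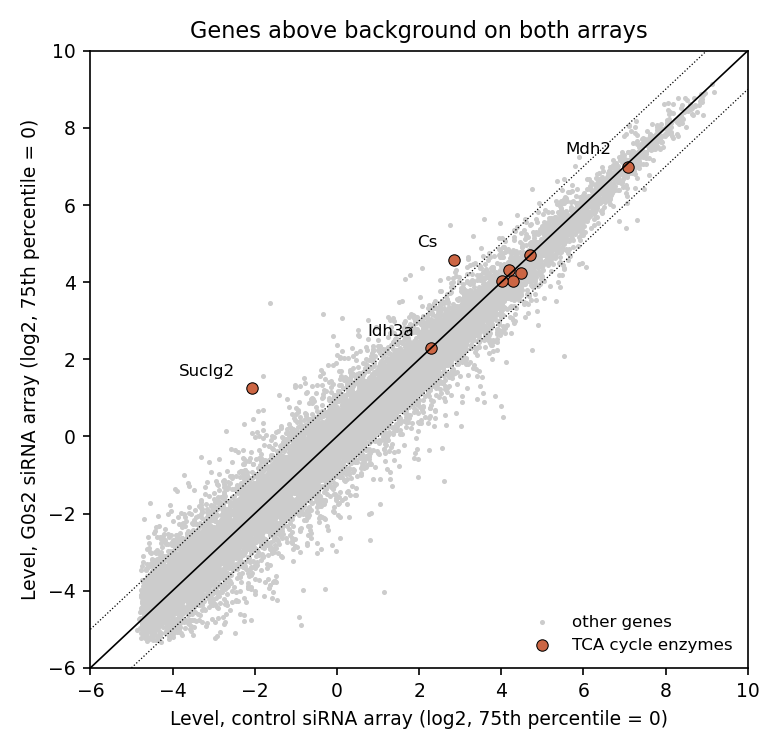
Level of each gene above background on both arrays, control siRNA (x axis) against G0s2 siRNA (y axis), in log2 units with each array's 75th percentile at 0; orange points are the 9 TCA cycle enzymes, the solid line marks equal levels and dotted lines mark 2-fold. Suclg2 at levels of -2.07 and 1.25 and Cs at 2.85 and 4.58 lie above the upper line, while the other 7 enzymes lie along the line of equal levels.

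A further 61 genes linked to the cycle were listed, covering its partner subunits, pyruvate entry, anaplerosis, mitochondrial carriers and the supply and use of succinyl-CoA. Of these, 60 were measured, and the probes of Me3, a mitochondrial malic enzyme, were not well above background on either array. In this list 1 gene passed 2-fold upward and 4 downward, beside 4.81% and 5.47% of all genes. The median was -0.07, with 26 positive and 34 negative. At 1.5-fold, 5 passed upward and 10 downward, beside 12.5% and 14.6% of all genes, and at 3-fold 1 and 0 passed, beside 1.14% and 1.53%. Differences over 2 times the scanner error were found upward in 7 and downward in 13, beside 16.4% and 20.0% of all genes. Most of the list therefore lay within 2-fold, as did most genes on the arrays.

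Among the 4 lower genes were Idh3g, given above, Sirt5 and Sucnr1. Sirt5, a mitochondrial enzyme that removes succinyl groups from lysines, had levels of 0.89 with control siRNA and -0.36 with G0s2 siRNA, a difference of -1.25 ± 0.20. Sucnr1, the cell-surface receptor for succinate, had levels of -1.91 and -3.07, a difference of -1.17 ± 0.22. The higher gene was Ogdhl, a relative of Ogdh. Its probe was not well above background on the control siRNA array, so its difference of 2.14 ± 1.45, or 4.40-fold, is a bound. That difference was under 2 scanner errors. Normexp gave 0.64 on the same log2 scale, below the bound and under 2-fold, so the bound holds for the reported setting only. Spike-in centring turned Idh3g, Sirt5 and Sucnr1 positive, to between 0.16 and 0.24.

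Genes of succinyl-CoA supply and use outside the cycle, and those of pyruvate entry, differed by less than 2-fold in the reported setting. Of 7 in the first group, 4 were positive and 3 negative, from -0.82 for Alas2 to 0.56 for Alas1, the haem synthesis enzymes that consume succinyl-CoA. Mmut, the mutase that makes succinyl-CoA from methylmalonyl-CoA, differed by 0.08 ± 0.20. Oxct1, which spends succinyl-CoA to activate ketone bodies, differed by -0.60 ± 0.20. In the pyruvate dehydrogenase complex, Pdha1, the catalytic alpha subunit, differed by 0.98 ± 0.20, just short of 2-fold, while Pdhb, Dlat and Pdhx differed by -0.03, -0.21 and -0.42. The inhibitory kinases Pdk2 and Pdk3 differed by -0.86 and -0.91, Pdk4 by -0.30 and Pdk1 by 0.45. Of the phosphatase genes, Pdp1 differed by 0.12 at its brightest probe, Pdp2 by 0.04 and the regulatory subunit gene Pdpr by 0.99 ± 0.22. The other probes of Pdp1 gave 0.96 ± 0.23 and -0.005 ± 0.22. Normexp moved Pdpr to 0.43. Pcx, pyruvate carboxylase, which refills oxaloacetate, differed by 0.94 ± 0.20. Both Pdha1 and Pcx crossed 2-fold with loess, at 1.02 and 1.04, and with quantile normalization, at 1.01 and 1.05. Pcx also crossed it with the authors' values, at 1.03, and spike-in centring put Pdha1 at 2.38 and Pcx at 2.34. The 6 mitochondrial carriers listed lay between -0.80 for Slc25a13, an aspartate-glutamate carrier, and 0.18.

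The genes with the most similar pair of levels to Suclg2, by distance in the plane of the array levels, were Gna11, Sds and Pacc1, at distances of 0.42, 0.59 and 0.63. Gna11, a G protein alpha subunit gene, had levels of -1.79 with control siRNA and 1.55 with G0s2 siRNA. Sds, serine dehydratase, had levels of -1.93 and 0.67. Pacc1, a proton-activated chloride channel gene, had levels of -1.79 and 0.68. With 2 arrays this likeness rests on 2 values per gene. Because a level also depends on the probe's sequence, it is a likeness of probe signals and not of transcript amounts.

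**Figure D4:**
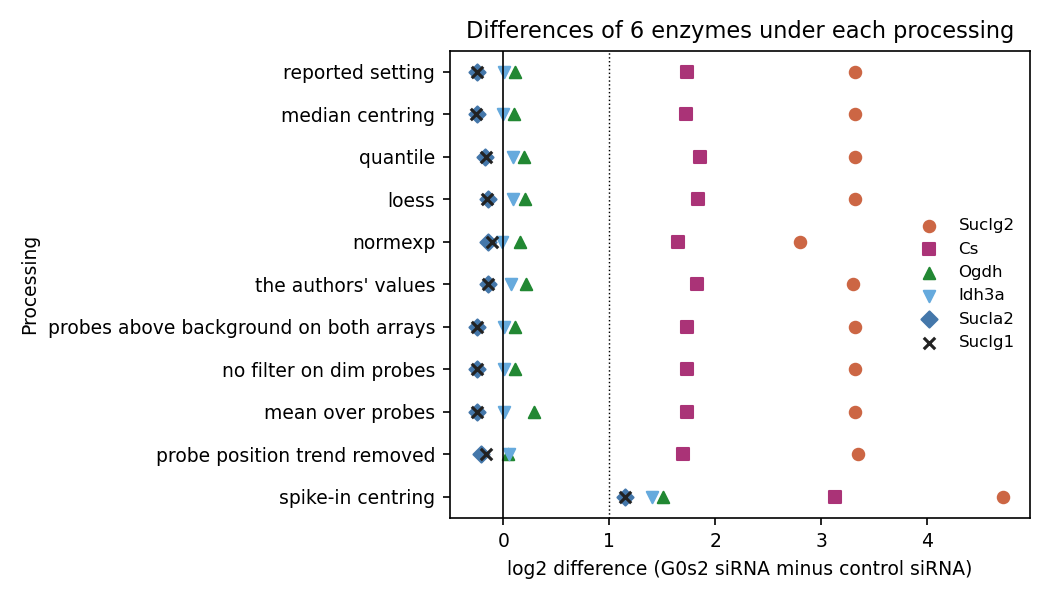
Log2 difference, G0s2 siRNA minus control siRNA (x axis), of 6 of the enzymes under the reported setting and 10 other ways of processing (y axis); the solid line marks 0 and the dotted line 2-fold higher. Suclg2 stays between 2.80 and 3.35 and Cs between 1.65 and 1.85 except with spike-in centring, which moves Suclg2 to 4.72, Cs to 3.13 and every other enzyme past 2-fold.

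Across 9 of these ways of processing, spike-in centring left out, Suclg2 differed by 2.80 to 3.35 and Cs by 1.65 to 1.85. Suclg1, Sucla2 and Mdh2 were negative in all 9 and Ogdh positive in all 9, each under 2-fold. The probes of these genes were above background on both arrays, so the 2 filters could only return the reported value. Except for Ogdh, which has several probes, the same holds for probe averaging. Centring on 8 spike-in control probes instead moved all genes up, to a median of 1.34, and put all 9 enzymes at least 2-fold higher, with Suclg1 the lowest at 1.15. Suclg1, Sucla2 and Mdh2 turned positive there, so their direction holds only relative to the bulk of genes on the arrays.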

How the data were processed

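RNA from 2 cultures was hybridised to 2 one-colour Agilent arrays. The deposited scanner tables hold linear spot intensity values made with Agilent Feature Extraction 10.7.1.1, per the file headers, which name build mm9; both arrays share a scan start. The deposited series table holds intensity values normalized by the authors, by a method not given in the sources used here, and served as an alternative.

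Processed signals were scaled to each array's 75th percentile and taken to log2. Control spots and 5 probes with outlier spots were left out, and no spot was saturated. Genes were named through a RefSeq table of assembly GRCm38.p6, which gave the scanner table's own name for all 12 member probes. A gene was represented by its brightest probe above background on at least 1 array. A dim array's value was raised to the lowest signal above background, which makes that difference a bound. The call rule was 2-fold. Centring was tested on simulated signals with few probes changed, which cannot show whether most genes shifted. Named genes were the 9 enzymes, listed partners, linked genes past 2-fold, G0s2 and the 3 genes nearest to Suclg2; other linked genes were named to describe a group, after their values were seen. One linked gene past 2-fold is counted but not reported by name here. Members and lists were chosen with earlier results of these data known. Alternatives were normexp (offset 50), median, quantile, loess (span 0.3) and spike-in settings, 2 filters, probe averaging, removal of the probe position trend, and other call rules. Python 3.11.15, numpy 2.4.6, pandas 2.3.3, statsmodels 0.14.6, R 4.3.3 and limma 3.58.1 were used. The number of arrays limits the precision.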

Additional observations from a re-analysis of the deposited data

How the results depend on the processing

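Of the 9 enzymes, 2 were at least 2-fold higher and 0 lower under all settings tried but spike-in centring, which gave 9 higher and 0 lower and moved the median of the set to 1.40. For the 60 linked genes measured, 1 was higher and 4 lower in the reported values. The number higher was 3 with loess, 3 with quantile normalization, 2 with the authors' values, 0 with normexp, 0 among probes above background on both arrays and 48 with spike-in centring. The number lower was 3 with loess, quantile normalization, normexp and the authors' values, and 0 with spike-in centring. With other rules the linked genes gave 5 higher and 10 lower at 1.5-fold, 0 lower at 3-fold, and 7 higher and 13 lower at over 2 scanner errors, where 16.4% and 20.0% of all genes passed. Suclg2 had rank 9 among the increases of all measured genes, bounds included, and rank 26 without a filter on dim probes. Among all genes the share higher of those past 2-fold was 46.8%, and 99.6% with spike-in centring. Signal over background limits Suclg2 most on the control siRNA array, where normexp moved its difference to 2.80. No paired analysis was possible because each group has 1 array, and for the same reason no replicate could be left out.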
